A study of Mus musculus with 18 samples.

Results

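The genes described are 8 tubulins and a dynein light chain in CD8 T cells of mice on 3 diets. The tubulins are the alpha isotypes Tuba4a, Tuba1a, Tuba1b and Tuba1c and the beta isotypes Tubb4b, Tubb5, Tubb2a and Tubb6, and the light chain is Dynll1. They are 9 of the 56748 Ensembl gene IDs counted, matched by symbol in GENCODE M21, and all 9 were among the 13690 genes that passed the filter on low counts. Tubb4b and Tuba4a had the smallest p-values of all genes in high fat diet against normal diet (6.49e-09 and 2.04e-08), which is why these genes were chosen. The next gene by p, just outside, was Rbm12 at 2.74e-08. The values of that comparison are therefore given as a description.

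CD8 T cells were sorted from the spleens of wild-type mice, and their poly-A RNA was sequenced in 6 libraries per diet. ND mice ate normal diet for 12 weeks, and HFD mice ate high fat diet for the same 12 weeks. SW mice were switched from 6 weeks of high fat diet to 6 weeks of normal diet. Strain, age and sex are not given in the labels used here, and all groups share the wild-type genotype.

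Microtubules are hollow polymers of alpha and beta tubulin dimers, and most animals carry several genes, or isotypes, for each subunit. In a CD8 T cell that meets its target, the microtubule organising centre turns toward the contact, and lytic granules travel along microtubules on motor proteins such as cytoplasmic dynein. Cells hold the amount of tubulin messenger RNA down when free dimers are in excess: TTC5 binds the first residues of a tubulin as it leaves the ribosome and, through SCAPER, brings in the CCR4-NOT complex that degrades the messenger RNA. Dynll1 encodes a small light chain that sits in dynein and also binds many proteins outside it.

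The coding starts are shown because autoregulation reads the residues they encode. Each sequence is the first 24 bases of the GENCODE M21 coding region, 5′ to 3′, with the first 4 codons in capitals.
Tubb4b: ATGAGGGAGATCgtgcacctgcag
Tubb5: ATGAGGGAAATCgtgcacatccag
Tubb2a: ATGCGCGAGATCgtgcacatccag
Tuba4a: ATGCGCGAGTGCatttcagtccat
Tuba1a: ATGCGTGAGTGCatctccatccat
Tuba1b: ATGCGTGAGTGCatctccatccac
Dynll1: ATGTGCGACCGGaaggcggtgatc
Tuba1b and Tuba1c have the same 24 bases. Dynll1, which is no tubulin, starts differently.

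The coding ends of Tuba4a and Tuba1c are shown because they differ in the final codon. Alpha tubulin is best known for a final tyrosine that enzymes remove and put back, and the tyrosine codon is in capitals in the last 27 bases, stop codon included.
Tuba4a: gaggacgaggatgagggagaagagtag
Tuba1c: ggagacgatgagggtgaggaaTATtaa
Tuba4a encodes no final tyrosine, while Tuba1c does. Its coding region has 448 codons before the stop, against 449 in Tuba1c.

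Total counts ran from 11947339 to 16398340 per library, so that the weakest of the 9 genes, Tubb6, rested on 51 to 121 counts and the strongest, Tubb5, on 9945 to 14344. Levels below are counts per 1000000 of the library (CPM), and levels between genes are compared as FPKM, per length. The summed level of 10 CD8 T cell identity genes, led by Cd8a and Cd8b1, ran from 7162 to 8151 CPM over all libraries. HFD replicate 4 stood apart on the first principal component of expression, at 55.0 against at most 6.31 in any other library. On the second component replicates 1 and 2 lay higher than replicates 3 to 6 within each diet. Values are given below without HFD replicate 4 and within each of these sets of replicates. The labels do not say what the numbers mark or that libraries came from separate mice, and so the p-values rest on the spread between these libraries, part of which may be technical.

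Tubb5 was the most abundant of the 9 genes per length. In ND it averaged 275 ± 9.98 FPKM (SD, n = 6), followed by Tuba1b at 145 ± 6.69, Tubb4b at 80.6 ± 5.51 and Tuba1a at 58.4 ± 6.94. Dynll1 at 51.1 ± 4.87 and Tuba4a at 47.8 ± 3.73 came next. The ND libraries of Tuba1a, Dynll1 and Tuba4a overlapped one another, so the order of these 3 neighbours is within their spread. Tuba1c (25.1 ± 1.89 FPKM), Tubb2a (8.42 ± 0.77) and Tubb6 (2.61 ± 0.25) were the lowest.

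Tubb4b, a beta isotype expressed in most tissues, differed most. Its ND libraries ran from 145 to 177 CPM with a median of 164. In SW they ran from 117 to 151 with a median of 130, and in HFD from 90.1 to 123 with a median of 108. All HFD libraries lay below all ND libraries, and the SW libraries lay between, reaching into both. On average the ND libraries held 163 ± 11.6 CPM (SD, n = 6), the SW libraries 134 ± 12.0 and the HFD libraries 109 ± 12.2. The log2 fold change of HFD against ND was -0.58 ± 0.07 (SE), or 0.668 times the ND mean, with an edgeR adjusted p of 8.88e-05.

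**Figure D1:**
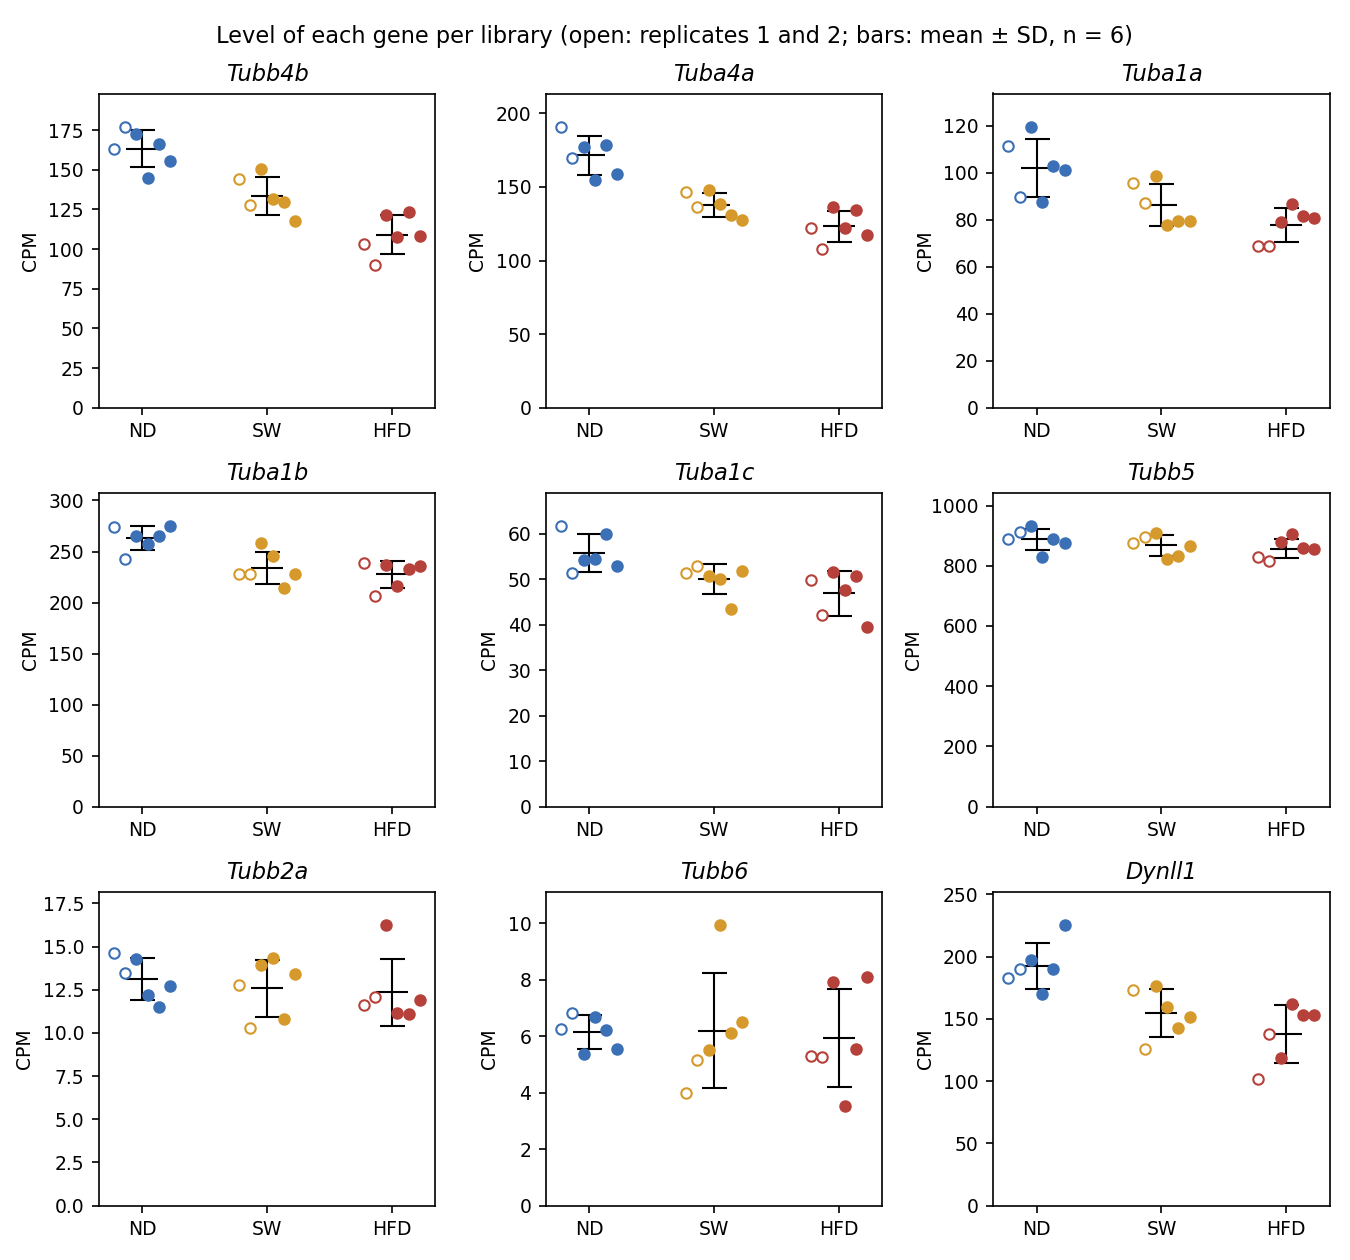
CPM of the 9 genes in each of the 18 libraries, by diet (ND, SW, HFD). Points are libraries, open for replicates 1 and 2, and bars are the mean and SD of 6 libraries. In Tubb4b and Tuba4a no HFD library reaches the ND libraries, whereas in Tubb5, Tubb2a and Tubb6 the diets overlap.

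Tuba4a, the alpha isotype without the final tyrosine, followed closely. It ran from 155 to 191 CPM in ND (median 173), from 128 to 148 in SW (median 137) and from 108 to 136 in HFD (median 122). Neither the SW nor the HFD libraries reached the lowest ND library, while SW and HFD overlapped. The means were 172 ± 13.4 CPM in ND (SD, n = 6), 138 ± 8.09 with the switched diet and 123 ± 10.7 with high fat diet. HFD against ND gave a log2 fold change of -0.48 ± 0.06 (SE; edgeR adjusted p = 0.000125).

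The Tuba1 isotypes lie within 106686 bases of each other on chromosome 15 and make up most of the alpha tubulin messenger RNA. Tuba1a, the isotype best known from neurons, ran from 87.7 to 119 CPM in ND (median 102), from 78.0 to 98.7 in SW (median 83.4) and from 68.9 to 86.7 in HFD (median 79.9). The HFD libraries all lay below the ND libraries, by a narrow margin, and the SW libraries reached into each. Its log2 fold change in HFD against ND was -0.39 ± 0.08 (SE; edgeR adjusted p = 0.00997). Tuba1b, the main alpha isotype here, ran from 243 to 275 CPM in ND (median 265), from 214 to 258 in SW (median 228) and from 206 to 239 in HFD (median 234). Again HFD did not reach ND, and SW overlapped both. The Tuba1b fold change was smaller, -0.21 ± 0.05 (edgeR adjusted p = 0.0381).

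Tuba1c was not called in HFD against ND, at -0.25 ± 0.07 (SE; edgeR adjusted p = 0.0623). It ran from 51.4 to 61.6 CPM in ND (median 54.2), from 43.5 to 52.8 in SW (median 51.0) and from 39.5 to 51.6 in HFD (median 48.7). All 6 HFD libraries lay below the ND mean, but the diets overlapped at the edge.

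The other beta isotypes differed less between diets. Tubb5, the main beta tubulin of these cells, ran from 830 to 932 CPM in ND (median 888), from 823 to 910 in SW (median 872) and from 816 to 904 in HFD (median 857). The ranges were nearly the same, and the log2 fold change was -0.05 ± 0.05 in HFD against ND (SE; edgeR adjusted p = 0.653). Tubb2a ran from 11.5 to 14.7 CPM in ND, 10.3 to 14.3 in SW and 11.1 to 16.2 in HFD, with a fold change of -0.09 ± 0.11 (edgeR adjusted p = 0.750). Tubb6, on chromosome 18 at 67390717 to 67402749 (GRCm38, plus strand), ran from 5.37 to 6.84 CPM in ND, 3.98 to 9.93 in SW and 3.52 to 8.08 in HFD, with a fold change of -0.05 ± 0.19 (edgeR adjusted p = 0.933). Tubb6 was the least precise of the 9 genes, and its ND libraries were the tightest.

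Dynll1, the dynein light chain, moved in the same direction as the tubulins. It ran from 170 to 225 CPM in ND (median 190), from 125 to 177 in SW (median 155) and from 102 to 162 in HFD (median 145). No HFD library reached the lowest ND library, and HFD replicates 1 and 3 were the lowest of that diet. The means were 193 ± 18.5 CPM in ND (SD, n = 6), 155 ± 19.3 with the switched diet and 138 ± 23.2 with high fat diet. Its log2 fold change in HFD against ND was -0.48 ± 0.10 (SE; edgeR adjusted p = 0.0229).

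Of the 9 genes 5 were called lower in HFD against ND at an edgeR adjusted p under 0.05, namely Tubb4b, Tuba4a, Tuba1a, Tuba1b and Dynll1. Over all genes 1.62% were called (222 of 13690), and 0.957% were called lower. The same 5 genes had HFD libraries that all lay below all ND libraries, which held for 1.00% of all genes. The fold change was below 0 for 9 of 9, against 47.6% of all genes, and the median was -0.25 against 0.01. The genes were chosen on this comparison, so nothing is read from these shares. Bulk libraries cannot tell fewer cells with a high level from less RNA per cell.

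Without HFD replicate 4 the log2 fold changes in HFD against ND were -0.58 for Tubb4b, -0.47 for Tuba4a, -0.43 for Tuba1a and -0.54 for Dynll1, and these 4 were called. Tuba1b was not called without it, at -0.20 (edgeR adjusted p = 0.0736). Tuba1b was also not called when ND replicate 1, 3, 4, 5 or 6 or HFD replicate 2 or 6 was left out, with adjusted p-values from 0.0230 to 0.0837 over the 18 fits that left out 1 library.

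The switched diet shows these genes 6 weeks after return to normal diet. No library was taken at the switch, so their level then is unknown. Values in SW can therefore be called neither a remainder nor a recovery. The SW libraries were not used to choose the genes, but this comparison shares its ND libraries with the one that did. Tuba4a averaged 138 CPM in SW against 172 in ND, a log2 fold change of -0.31 ± 0.06 (SE; edgeR adjusted p = 0.0634). It had the smallest p of the 9 genes (1.87e-05), and was the only one of the 9 whose SW libraries all lay below the ND libraries, as 0.416% of all genes did. Tubb4b stood at -0.29 ± 0.07 (edgeR adjusted p = 0.123), with all 6 SW libraries below the ND mean.

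No gene of the 9 was called in SW against ND by edgeR, where 0.0146% of all genes were called (2 of 13690), 0.00730% lower and 0.00730% higher. The fold change was below 0 for 8 of the 9, against 49.1% of all genes. At an unadjusted p under 0.05 there were 6 of 9, against 6.81% of all genes. The ND libraries are those in which these genes were chosen as high, so nothing is read from these shares or from the direction. DESeq2 called Tuba4a (adjusted p = 0.00154) and Tubb4b (adjusted p = 0.0305), and limma-voom called Tuba4a alone (adjusted p = 0.0337). The further values were -0.32 ± 0.10 for Dynll1, -0.24 ± 0.08 for Tuba1a, -0.17 ± 0.05 for Tuba1b and -0.16 ± 0.07 for Tuba1c (SE; edgeR adjusted p from 0.326 to 0.673). Tubb5 stood at -0.03 ± 0.05, Tubb2a at -0.07 ± 0.11 and Tubb6 at 0.01 ± 0.19. With a term for the 2 sets of replicates edgeR called Tuba4a (adjusted p = 0.0283), and Tuba4a was called in 7 of 14 alternatives and Tubb4b in 3 of 14. The call of Tuba4a also turned on single libraries: edgeR called it without ND replicate 4 or 6, SW replicate 1, or HFD replicates 1, 2 or 5, with adjusted p-values from 0.0339 to 0.200 over the 18 fits.

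**Figure D2:**
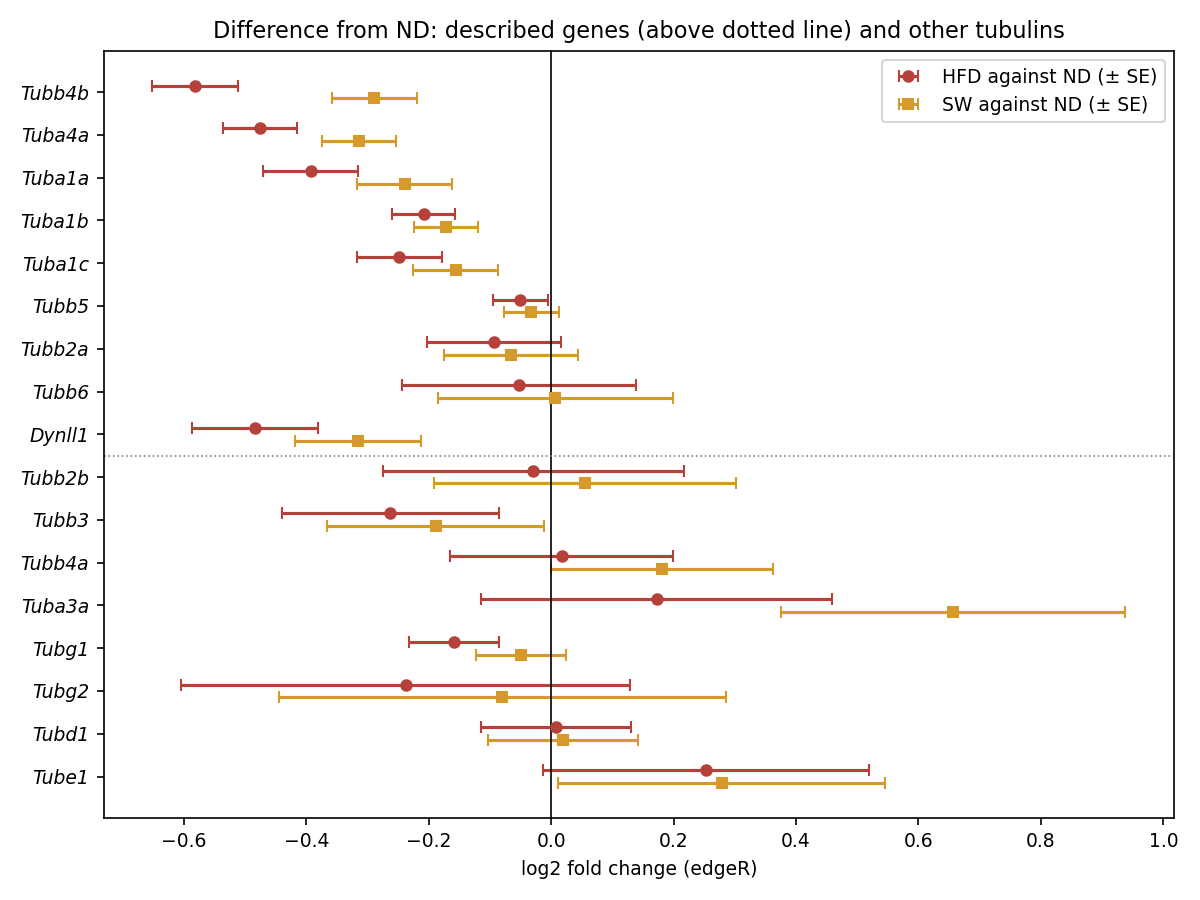
Log2 fold change from edgeR, with its SE, of HFD against ND (circles) and SW against ND (squares), both relative to the same 6 ND libraries. The 9 genes stand above the dotted line, and the 8 other tubulins that passed the filter stand below it. Tubb4b lies at -0.58 in HFD and -0.29 in SW, and Tubb5 lies at -0.05 and -0.03.

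The comparison of SW with HFD shares the HFD libraries in which these genes were chosen as low, so nothing is read from the direction of its values. In SW against HFD Tubb4b averaged 134 CPM against 109, a log2 fold change of 0.29 ± 0.07 (SE; edgeR adjusted p = 0.0807). All 6 SW libraries lay above the HFD mean, but the lowest SW library, at 117, lay below the highest HFD library, at 123. Tuba4a stood at 0.16 ± 0.06, Dynll1 at 0.17 ± 0.10 and Tuba1a at 0.15 ± 0.08 (edgeR adjusted p = 0.303, 0.564 and 0.471). The other 5 genes lay between 0.02 and 0.09. EdgeR called none of the 9, against 0.124% of all genes (17 of 13690; 0.0657% lower and 0.0584% higher). No gene of the 9 had SW libraries all above the HFD libraries, against 0.373% of all genes, and 2 of 9 had an unadjusted p under 0.05, against 11.1% of all genes. DESeq2 called Tubb4b (adjusted p = 0.0171), as did edgeR with the term for the sets (adjusted p = 0.0450). Limma-voom called none, and edgeR called Tubb4b without SW replicate 6 or HFD replicate 5 (adjusted p from 0.0327 to 0.194 over the 18 fits).

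The means fell in the order ND, SW, HFD for 8 of 9 genes, all but Tubb6, and for 19.2% of all genes. Choosing Tubb4b and Tuba4a on HFD against ND fixed the ends of that order. Genes chosen for high ND and low HFD values also tend to have SW between them. The 19.2% covers all genes, of which only 47.6% had a fold change below 0 in HFD against ND. Nothing is therefore read from this share. In the edgeR test of any difference among the diets, which includes the comparison used for the choice, 3 of 9 were called, against 0.898% of all genes. They were Tubb4b and Tuba4a (both adjusted p = 0.000477) and Tuba1a (adjusted p = 0.0268), and Dynll1 was just outside at 0.0509. Tuba1a was not called in this test without ND replicate 1, 3 or 5 or HFD replicate 2. Dynll1 was called without ND replicate 4, SW replicates 1, 2 or 3, or HFD replicates 1, 4 or 5, and Tuba1b without SW replicate 3 or HFD replicate 1.

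Tubb4b made up less of the beta tubulin messenger RNA in SW and HFD than in ND, and Tubb5 more. Tubb4b was chosen on HFD against ND, so its lower share is a description. The level of Tubb5 itself did not rise, at 275 FPKM on average in ND, 270 in SW and 267 in HFD. Its larger share goes with a smaller beta sum. Per length, Tubb4b was 21.6% ± 0.66 (SD, n = 6) of the summed FPKM of 8 beta isotypes in ND, 18.8% ± 1.21 in SW and 16.0% ± 1.26 in HFD. Single ND libraries lay between 20.8% and 22.6%, the SW libraries between 16.9% and 20.0% and the HFD libraries between 14.3% and 17.8%. No SW or HFD library reached ND, and SW and HFD overlapped. Tubb5 made up 74.0% ± 0.53 in ND, 76.7% ± 1.38 in SW and 79.4% ± 1.47 in HFD, while Tubb2a stayed between 2.26% and 2.36% on average.

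Within the alpha tubulins Tuba4a was 17.2% ± 0.94 (SD, n = 6) of the summed FPKM of 8 alpha isotypes in ND, 16.0% ± 0.53 in SW and 15.1% ± 0.60 in HFD. Tuba1b made up 52.2% ± 1.66, 53.3% ± 1.55 and 55.2% ± 1.77, Tuba1a 21.0% ± 1.53, 20.5% ± 1.39 and 19.6% ± 1.57, and Tuba1c 9.05% ± 0.46, 9.36% ± 0.57 and 9.31% ± 0.75 in the same order. The summed level went from 278 ± 15.4 FPKM in ND to 242 ± 15.1 in SW and 228 ± 12.2 in HFD for alpha, and from 372 ± 15.6 to 352 ± 14.5 and 337 ± 14.6 for beta. No test was made on these shares and sums.

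**Figure D3:**
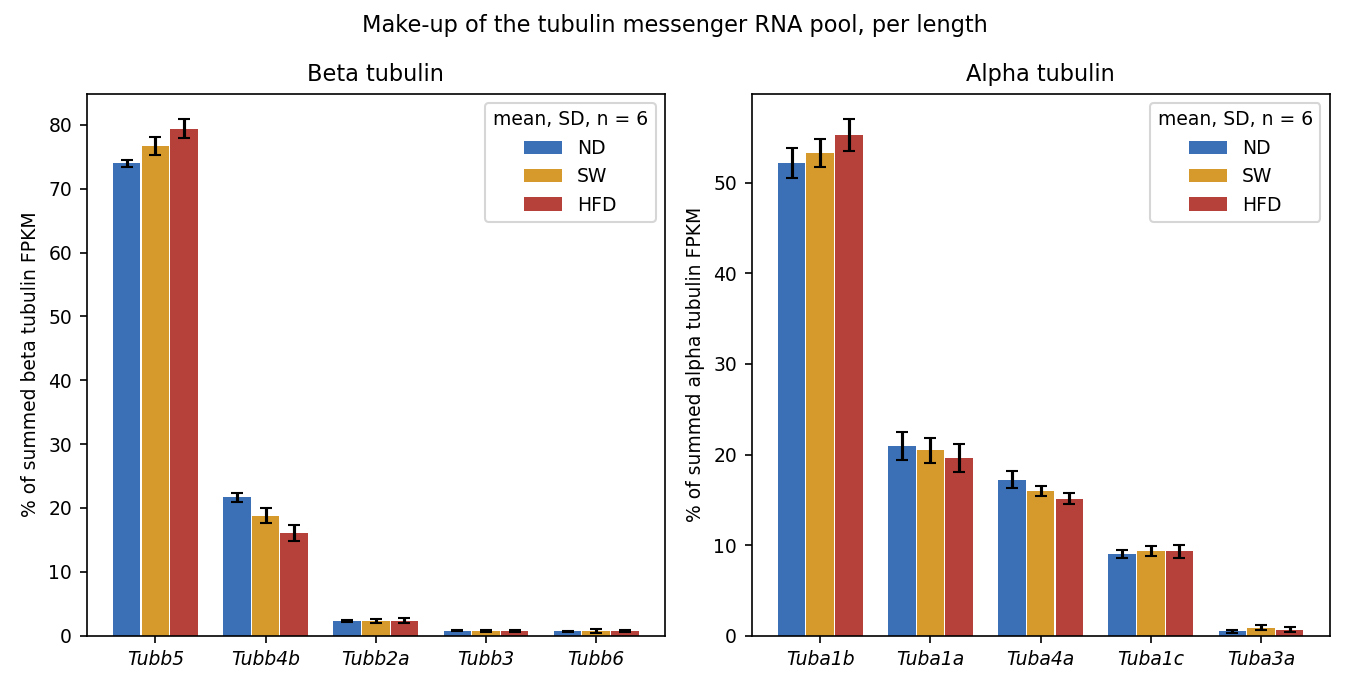
Share of each isotype in the summed FPKM of the beta (left) and alpha (right) tubulins, in percent, as mean and SD of 6 libraries per diet. Tubb4b goes from 21.6% in ND to 16.0% in HFD while Tubb5 goes from 74.0% to 79.4%. The level of Tubb5 itself averaged 275 FPKM in ND and 267 in HFD.

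Tubb4b and Tuba4a went together from library to library. The ratio of their FPKM was 1.69 ± 0.11 in ND (SD, n = 6), 1.71 ± 0.06 in SW but 1.56 ± 0.07 in HFD, whereas the ratio of Tubb4b to Tubb5 went from 0.293 ± 0.01 to 0.245 ± 0.02 and 0.202 ± 0.02. Over the 18 libraries and 8639 genes of at least 10 CPM on average, Tuba4a had the pattern most like Tubb4b (Pearson r = 0.955 of log2 CPM), and Tubb4b the one most like Tuba4a. After Tuba4a, the patterns most like Tubb4b were those of Fnta (r = 0.913), Rabif (0.869), Cdr2 (0.868) and Uspl1 (0.866). Fnta (0.905), Tuba1a (0.862), Rabif (0.858) and AI467606 (0.842) followed Tubb4b for Tuba4a. These 18 points share the diets and the library scaling. Tubb4b and Tuba4a were both chosen as different in HFD against ND, so part of their likeness over the diets comes from the choice.

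When each library was taken as its deviation from its diet mean, Tuba4a was again first for Tubb4b, at r = 0.845, and Tubb4b first for Tuba4a. Next for Tubb4b came Eral1 (0.798), D030056L22Rik (0.756), Mfap1a (0.756) and an unnamed gene, ENSMUSG00000118663 (0.751). For Tuba4a they were Krcc1 (0.766), Tspan13 (0.745), Slc31a2 (0.742) and Pqlc3 (0.711). Among the described genes, Tubb5 had an r of 0.624 with Tubb4b in these deviations, Tuba1a one of 0.610 and Dynll1 one of 0.289.

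**Figure D4:**
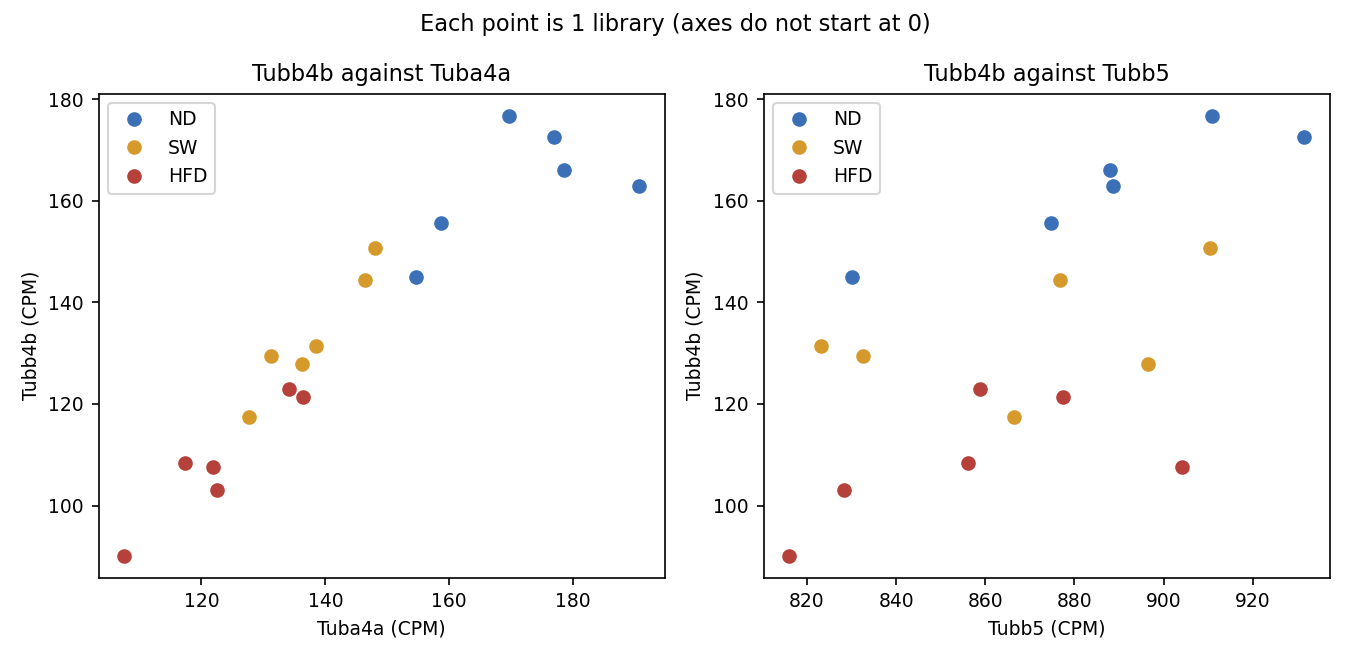
Tubb4b against Tuba4a (left) and against Tubb5 (right), in CPM, with 1 point per library coloured by diet. Tubb4b and Tuba4a lie along a line through all 3 diets, while at like levels of Tubb5 the diets differ in Tubb4b.

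HFD minus ND lay below 0 in both sets of replicates for the genes that were called. All HFD libraries of these genes lay below all ND libraries, so that direction was fixed in advance and nothing is read from it. HFD minus ND, as a difference of mean log2 CPM, was -0.82 for Tubb4b in replicates 1 and 2 and -0.47 in replicates 3 to 6. The corresponding values were -0.65 and -0.39 for Tuba4a, -0.54 and -0.32 for Tuba1a, -0.65 and -0.42 for Dynll1, and -0.22 and -0.21 for Tuba1b. HFD replicate 2 was the lowest library of Tubb4b, Tuba4a and Tuba1b, and HFD replicate 1 the lowest of Dynll1. In SW against ND the sets lay closer together, at -0.32 and -0.28 for Tubb4b, -0.35 and -0.29 for Tuba4a and -0.34 and -0.31 for Dynll1. Whether the sets differ was not tested. EdgeR on replicates 3 to 6 alone called Tubb4b, Tuba4a and Tuba1a in HFD against ND, and on replicates 1 and 2 alone Tubb4b and Tuba4a. Both fits reuse libraries on which the genes were chosen, and so they are a description.

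**Figure D5:**
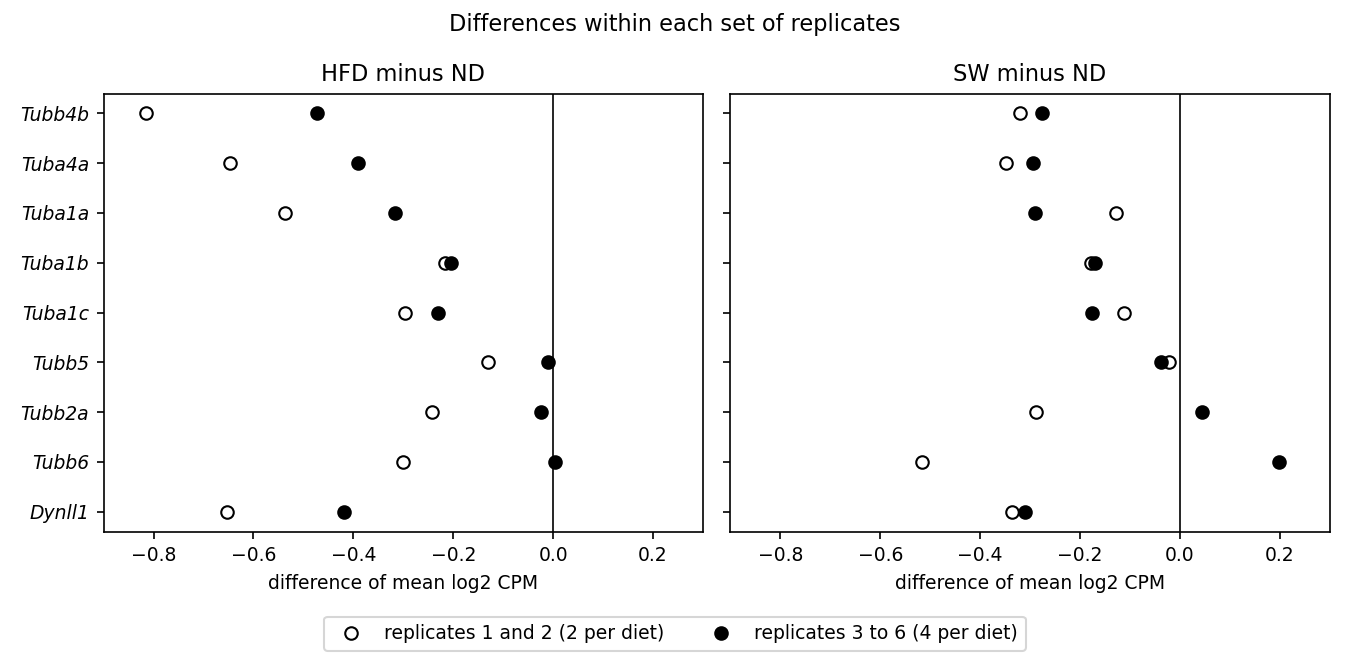
Difference of mean log2 CPM from ND in HFD (left) and SW (right), for replicates 1 and 2 (open) and replicates 3 to 6 (filled). In HFD, Tubb4b lies at -0.82 and -0.47, and Tubb5 at -0.13 and -0.01.

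Markers of blood cells other than CD8 T cells were measured beside these genes. The summed level of 8 erythroid markers, haemoglobins included, ran from 18.1 to 45.9 CPM in ND, 35.9 to 94.5 in SW and 16.7 to 347 in HFD, with HFD replicate 4 the highest. EdgeR called 0 of its 7 tested genes in HFD against ND (6 had an unadjusted p under 0.05), DESeq2 called 5 and limma-voom 0. The summed level of 12 monocyte, macrophage and neutrophil markers ran from 19.2 to 29.0 CPM in ND, 18.02 to 31.0 in SW and 28.1 to 36.8 in HFD. EdgeR called 0 of 7 tested genes (4 had an unadjusted p under 0.05), DESeq2 and limma-voom each called 1, Lyz2. Of these markers Ly6g had at most 1 count in any library and Cd14 at most 7, while Lyz2 reached 212 and Cd68 204. The 7 tested genes had a median log2 fold change of 0.80 in HFD against ND, and 1 of them lay below 0. With the erythroid level as a covariate, Tubb4b stood at -0.58 ± 0.08 and Tuba4a at -0.48 ± 0.07 in HFD against ND (SE; both edgeR adjusted p = 0.00145). With the myeloid level they stood at -0.53 ± 0.09 and -0.47 ± 0.08 (both edgeR adjusted p = 0.0260). Tuba1a at -0.30 ± 0.10 and Dynll1 at -0.40 ± 0.14 were not called with the myeloid level (edgeR adjusted p = 0.209 and 0.238), and Dynll1 was not called with the erythroid level (edgeR adjusted p = 0.107). The myeloid ranges of ND and HFD overlapped only at the edge, so the myeloid fit can hardly tell that level from the diet.

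In the further marker lists edgeR called, in HFD against ND, 1 of 7 CD4 T cell genes (Ctla4, higher), 1 of 6 B cell genes (Ighm, higher) and 1 of 4 plasma cell genes (Prdm1, higher). The log2 fold changes were 1.44 ± 0.34 for Ctla4, 0.24 ± 0.06 for Ighm and 0.91 ± 0.19 for Prdm1 (SE). EdgeR called none of 10 CD8 T cell, 8 dendritic cell, 5 natural killer cell, 1 platelet or 2 ciliated cell genes tested (0, 2, 1, 0 and 1 with an unadjusted p under 0.05), and DESeq2 called 2 of the dendritic cell genes (Itgax and Siglech) and 1 of the natural killer cell genes (Gzma) higher. DESeq2 also called 3 of the 4 plasma cell genes higher (Irf4, Prdm1 and Jchain), with Ctla4 and Ighm as by edgeR. Limma-voom called Cd4, Ighm and Prdm1 higher and none of the others. Tubb1, the beta tubulin of platelets, had at most 3 counts in any library, and the platelet gene Gp1bb and the ciliated cell gene Tekt1 had none. In the same lists Itga2b reached 83 counts and Ccdc39 105. The part of other cells in the tubulin values was not tested, and the covariate fits above do not measure it.

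Dividing cells build spindles, and 25 proliferation genes were measured for that reason. Their summed level ran from 479 to 516 CPM in ND, 451 to 526 in SW and 490 to 663 in HFD, and their median log2 fold change was 0.30 in HFD against ND, against 0.01 for all genes. Mki67 stood at 0.36 ± 0.19 and Top2a at 0.30 ± 0.16 (SE; edgeR adjusted p = 0.398 and 0.405). EdgeR called none of the 25, with 6 at an unadjusted p under 0.05, and neither DESeq2 nor limma-voom called any in this comparison. Only 2 of the 25 lay below 0. Pcna, chosen after its value was seen, is 1 of them, at -0.07 ± 0.06 (SE; edgeR adjusted p = 0.644). In SW against ND DESeq2 called it lower. In SW against HFD all 25 lay below 0 (9 with an unadjusted p under 0.05, median -0.34), and edgeR called none. With the level of the 25 as a covariate, Tubb4b stood at -0.52 ± 0.07 and Tuba4a at -0.44 ± 0.07 in HFD against ND (edgeR adjusted p = 0.00175 and 0.00183). Tuba1a and Dynll1 were not called in that fit (edgeR adjusted p = 0.0567 and 0.0870).

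The other tubulins did not pass the test. Over all genes only 1.62% were called in HFD against ND, 0.0146% in SW against ND and 0.124% in SW against HFD. A short list with none called is therefore near the share of all genes. Nothing is read from such counts, here or in the lists that follow. Of 12 further tubulin genes 8 passed the filter, and edgeR called none in HFD against ND (1 with an unadjusted p under 0.05, median -0.01), SW against ND (1, median 0.04) or SW against HFD (0, median 0.10). Tubb2b stood at -0.03 ± 0.25 and Tubb3, best known from neurons, at -0.26 ± 0.18 in HFD against ND (SE; edgeR adjusted p = 0.973 and 0.516). Gamma tubulin Tubg1, which nucleates microtubules, had the single small unadjusted p, at -0.16 ± 0.07 (edgeR adjusted p = 0.309). DESeq2 and limma-voom called none of the 8 in any comparison. In ND the 8 averaged from 0.954 CPM (Tubg2, SE 0.37 in HFD against ND) to 33.9 CPM (Tubg1, SE 0.07). A change of the size seen in Tubb4b could go uncalled in the weakest of them.

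The machinery of tubulin autoregulation did not pass the test either. Ttc5, the factor that binds the nascent chain, averaged 67.5 ± 5.37 CPM in ND (SD, n = 6) and 68.3 ± 1.72 in HFD, a log2 fold change of 0.02 ± 0.05 (SE; edgeR adjusted p = 0.915). Scaper, the adaptor to CCR4-NOT, stood at -0.05 ± 0.15 (edgeR adjusted p = 0.912). Of 13 genes, with the CCR4-NOT subunits, edgeR called none in any comparison (0 with an unadjusted p under 0.05 in HFD against ND, 2 in SW against ND, 0 in SW against HFD). The median was -0.02 in HFD against ND.

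Tubulin folding takes chaperonin, prefoldin and the tubulin cofactors. Of 21 such genes edgeR called none in HFD against ND (2 with an unadjusted p under 0.05, median -0.02), with the cofactors Tbca at -0.03 ± 0.07 and Tbcb at 0.10 ± 0.10 (SE; edgeR adjusted p = 0.882 and 0.700). Of 14 tested genes for tubulin modification it called none (0 with an unadjusted p under 0.05, median 0.03), with the deacetylases Hdac6 at 0.02 ± 0.11 and Sirt2 at 0.02 ± 0.06 (edgeR adjusted p = 0.944 and 0.937).

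The other dynein genes were not called in HFD against ND, as most genes were not (1.62% of all genes were called). Whether they differed from Dynll1 was not tested. Of 11 cytoplasmic dynein genes other than Dynll1 edgeR called none in HFD against ND (0 with an unadjusted p under 0.05, median -0.01). The heavy chain Dync1h1, the motor itself, stood at 0.07 ± 0.10 and the intermediate chain Dync1i2 at 0.08 ± 0.05 (SE; edgeR adjusted p = 0.805 and 0.437). Dynll2, the close paralog of Dynll1, belongs to this list, and the FPKM ratio of Dynll1 to Dynll2 was 2.35 ± 0.35 in the ND libraries (SD, n = 6), 2.00 ± 0.27 in those of SW and 1.86 ± 0.44 in those of HFD, with overlap. Of 12 dynactin genes none was called (3 with an unadjusted p under 0.05, median 0.04), Dctn1 at 0.13 ± 0.07 and Dctn2 at 0.07 ± 0.06 (edgeR adjusted p = 0.405 and 0.608). None of 13 dynein adaptor genes was called (0 with an unadjusted p under 0.05, median 0.04), Pafah1b1 at 0.05 ± 0.05 and Nde1 at 0.06 ± 0.05 (edgeR adjusted p = 0.710 and 0.620).

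Atmin, the zinc finger factor that drives Dynll1 transcription, averaged 40.3 ± 2.85 CPM in ND (SD, n = 6) and 41.3 ± 4.20 in HFD (edgeR adjusted p = 0.862). Bcl2l11, whose protein Bim binds the light chain, stood at 0.08 ± 0.07 (SE; edgeR adjusted p = 0.658). None of the 8 tested regulators and partners of Dynll1 was called in HFD against ND (2 with an unadjusted p under 0.05, median 0.08).

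Among genes for proteins that work on microtubules, edgeR called none of 24 microtubule-associated proteins (3 with an unadjusted p under 0.05, median 0.02), with the destabiliser Stmn1 at 0.00 ± 0.10 and Map4 at 0.14 ± 0.06 (SE; edgeR adjusted p = 0.997 and 0.231). It called none of 31 kinesins, motors that mostly run away from the centrosome (2 with an unadjusted p under 0.05, median 0.08), with Kif5b at 0.03 ± 0.07 and Kif21b at 0.11 ± 0.06 (edgeR adjusted p = 0.891 and 0.430). It called none of 16 genes of the gamma tubulin ring and centrosome (1, median 0.06), with Tubgcp2 at 0.15 ± 0.08 and Tubgcp3 at 0.05 ± 0.06 (edgeR adjusted p = 0.406 and 0.764). Of 28 genes of the actin cytoskeleton it called none (3, median 0.03), with Actb at -0.11 ± 0.05 and Actg1 at -0.01 ± 0.07 (edgeR adjusted p = 0.287 and 0.976). In these lists, from folding to actin, edgeR also called none in SW against ND or SW against HFD, where the number per list with an unadjusted p under 0.05 was 3 at most, and DESeq2 and limma-voom called none in any comparison.

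Some of these counts may hold reads of more than 1 gene, since the sources used here give neither the counting tool nor its treatment of shared reads. Positions are from GENCODE M21 (GRCm38), and all 9 genes are protein coding. Tubb4b lies on chromosome 2 at 25222160 to 25224702, minus strand. Of its 100-base transcript windows 30.6% occur in the transcripts of other genes, most often in Tubb4b-ps1, which had 0.854 to 2.32 CPM. Tuba4a lies on chromosome 1 at 75214228 to 75219865, minus strand, and 46.7% of its windows are shared with Stk16 on the other strand, which overlaps it by 1379 bases. Stk16 averaged 66.0 ± 5.28 CPM in ND (SD, n = 6) and 62.9 ± 4.88 in HFD, a log2 fold change of -0.07 ± 0.07 (SE; edgeR adjusted p = 0.682). Whether the counting used strand is not given in the labels, and reads from the overlapping stretch cannot be assigned to either gene.

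The Tuba1 genes share the most sequence. Tuba1a (chromosome 15, 98949837 to 98953703, minus) and Tuba1b (98931425 to 98934565, minus) differ at 23 of 1356 coding bases, an identity of 98.3%. Of the 100-base windows 65.8% of Tuba1a, 73.0% of Tuba1b and 53.4% of Tuba1c (99029891 to 99038110, plus) occur in other transcripts, so the split of reads among these 3 genes is uncertain. Tubb2a (chromosome 13, 34074274 to 34078007, minus) shares 36.9%, mostly with Tubb2b. Tubb5 (chromosome 17, 35833921 to 35838306, minus), Tubb6 and Dynll1 (chromosome 5, 115297110 to 115300999, minus) share 0% of their 100-base windows. Of windows of 50 bases, 55.5% were shared in Tubb4b, 48.8% in Tuba4a, 75.5% in Tuba1a, 83.1% in Tuba1b, 61.0% in Tuba1c, 49.6% in Tubb2a, 3.48% in Dynll1, 0.115% in Tubb5 and 0% in Tubb6. The read length is named in no source used here.

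The promoters of Tubb4b, Dynll1 and Tubb5 are shown because the first 2 genes were called lower in HFD while Tubb5, another beta isotype, was not called. Each is the 250 bases before the RefSeq start on GRCm38.p6, 5′ to 3′ on the minus strand, with CCAAT (or its reverse, ATTGG) and GGGCGG (or CCGCCC) in capitals.
Tubb4b, chr2:25224703-25224952: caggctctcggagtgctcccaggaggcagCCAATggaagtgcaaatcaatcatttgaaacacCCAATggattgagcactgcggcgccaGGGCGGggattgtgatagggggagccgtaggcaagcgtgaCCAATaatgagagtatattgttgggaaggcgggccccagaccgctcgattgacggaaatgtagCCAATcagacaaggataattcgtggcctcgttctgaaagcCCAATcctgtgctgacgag
Dynll1, chr5:115300991-115301240: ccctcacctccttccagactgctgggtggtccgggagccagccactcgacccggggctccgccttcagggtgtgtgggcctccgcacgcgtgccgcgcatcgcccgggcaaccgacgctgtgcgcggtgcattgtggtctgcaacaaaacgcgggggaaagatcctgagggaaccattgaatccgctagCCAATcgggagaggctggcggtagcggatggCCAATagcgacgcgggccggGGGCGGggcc
Tubb5, chr17:35838302-35838551: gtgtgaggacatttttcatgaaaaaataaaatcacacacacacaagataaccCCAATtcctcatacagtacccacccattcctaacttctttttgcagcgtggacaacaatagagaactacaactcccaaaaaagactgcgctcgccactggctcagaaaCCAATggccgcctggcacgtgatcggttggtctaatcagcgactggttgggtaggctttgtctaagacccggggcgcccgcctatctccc
CCAAT is the letter core of the box bound by the factor NF-Y, and GGGCGG that of the GC box bound by Sp1. Tubb4b holds 5 CCAAT matches in this window, and 0.213% of 32851 RefSeq promoters hold at least 5. Dynll1 and Tubb5 hold 2 each, as 10.1% of promoters do or more. Tuba1a and Tuba1c hold 1 each, and Tuba4a, Tuba1b and Tubb2a hold 0, where 33.8% of promoters hold at least 1. GGGCGG occurred in Tubb4b (1), Dynll1 (1), Tuba4a (2), Tuba1b (2), Tubb2a (2) and Tuba1a (1), and in 32.7% of promoters. TGACGTCA, the cyclic AMP response element, and TATAAA, the TATA box, each occurred in Tubb2a alone of the 8 windows (1 each), and in 1.55% and 12.4% of promoters. In these windows the 5 genes called lower in HFD all hold GGGCGG and differ in CCAAT, from 5 in Tubb4b to 0 in Tuba4a and Tuba1b, while Tubb2a, which was not called, also holds GGGCGG. The RefSeq starts differ from those of the GENCODE genes: of each 250-base window, 250 bases lie inside the gene in Tuba4a, 202 in Tuba1a, 175 in Tuba1b, 9 in Dynll1 and 5 in Tubb5, and 0 in Tubb4b, Tubb2a and Tuba1c. The promoter of Tuba4a, chosen with Tubb4b, is not shown, and its whole window lies inside the gene. In deviations from the diet means Tuba4a had an r of 0.845 with Tubb4b and Dynll1 one of 0.289. Tubb4b and Dynll1 are therefore not the pair most alike. A match describes letters in a window and was tested against no value here.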

How the data were processed

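Poly-A RNA of sorted CD8 T cells was measured in 18 libraries, 6 per diet, and groups were taken from the sample labels. The authors deposited raw counts per gene for each library, without normalization. They also deposited FPKM values, counts per length and depth, which equalled the counts times a gene and a library factor in 9534 genes, to a relative departure of 3.4e-09 at most. Per the submitters' processing notes, reads were handled with fastp, and the builds named are GRCm38 and mm10; aligner, counter and annotation are named in no source used here. Symbols came from GENCODE M21, which held 52125 of the 56748 IDs.

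The test on counts was the quasi-likelihood F test of edgeR (4.0.16, in R 4.3.3), with TMM factors, filterByExpr, a robust fit and diet as the only term, on all 18 libraries, and p-values were adjusted by Benjamini-Hochberg over 13690 genes, with calls at 0.05. The SE is the log2 fold change over the square root of F. The steps were tested on simulated data. Nothing marks PCR copies, and their share was not measured, so counting error alone may be understated. The test takes its spread from between the libraries. Alternatives were RLE size factors, no filter, DESeq2 1.42.0, limma 3.58.1 (voom, and log2 FPKM plus 0.1 or 1), blocks, sets of replicates, 2-diet fits and leaving out each library. The marker covariates were added after the data were seen.

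The 9 genes and the gene lists were chosen with earlier results of these data known. Named were all 9 genes, the first 2 tested genes of each pathway list with the called genes (up to 4 by p), and by each measure the 5 genes most like Tubb4b and like Tuba4a; of the marker lists the called genes are named. Tubg1, Dynll2, Stk16, Tubb4b-ps1 and defining markers at or near 0 were chosen after their values were seen. So were Lyz2, Cd68, Itga2b and Ccdc39 as markers with more counts. Promoters came from RefSeq (GRCm38.p6, 8 of the 9 genes described).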

Additional observations from a re-analysis of the deposited data

Results flagged for a closer look

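In 2 of 27 groups of 6 libraries, 1 library lay far from the others, with a gap over 0.625 of the group's range. Chance flags about 1 in 20 such groups. Tuba1c had 43.5 CPM in SW replicate 5, where the nearest SW library had 49.9 (gap 0.69 of the range). Tubb2a had 16.2 CPM in HFD replicate 3, where the nearest HFD library had 12.1 (gap 0.801 of the range).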

How the results depend on the processing

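Tubb4b and Tuba4a were called lower in HFD against ND under all 14 alternatives and in all 18 fits without 1 library. Tuba1a was called in 11 of 14 and 18 of 18, Dynll1 in 7 and 18, Tuba1b in 7 and 10, and Tuba1c, not called otherwise, in 5 and 1 (without HFD replicate 1). Counts of calls among the 9 genes (5, 0, 0 and 3) and among all genes (222, 2, 17 and 123) follow where they moved, in this order: HFD and SW each against ND, then SW against HFD, then any difference. The causes were not tested.

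With the replicate block, all genes called were 598, 49, 138 and 469, and 2 of the 9 were called in SW against ND and 1 in SW against HFD. Same-numbered libraries had correlated deviations over 0.1 in 7 of 18 pairs (-0.03 to 0.22), and 5 of 18 libraries correlated best with their own number. The median was 0.083 in these pairs, against -0.010 in pairs of unlike number (-0.19 to 0.17). The numbers were not treated as pairs in the main fit, so any part of the spread that they share stays in it. With a term for the set of replicates (1 and 2, or 3 to 6), all genes called were 535, 22, 116 and 444, and of the 9 there were 1 in SW against ND, 1 in SW against HFD and 5 in any difference. DESeq2 called 459, 52, 108 and 424 genes, and of the 9 it called 2, 1 and 5 in the last 3 comparisons. Limma-voom called 359, 29, 8 and 220 genes, and 1 of the 9 in SW against ND. Without a filter, 31, 53 and 216 genes were called in the last 3 comparisons, and 2 and 1 of the 9 in the SW comparisons. Log2 FPKM plus 0.1 gave 0, 1 and 77 genes there, and FPKM plus 1 gave 0 and 1 in the SW comparisons. RLE factors gave 1 in SW against ND. Fits of only the diets compared gave 19 and 0 in the SW comparisons, and 1 of the 9 in SW against ND.

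Replicates 3 to 6 alone gave 3 of the 9 in HFD against ND and 5 genes in SW against ND. Replicates 1 and 2 alone gave 2 of the 9 in HFD against ND, and 5, 0, 2 and 5 genes. The erythroid covariate gave 79, 15, 3 and 76 genes, with 3 of the 9 in HFD against ND and 1 in SW against ND. The myeloid covariate gave 5, 0, 0 and 0 genes, with 2 of the 9 in HFD against ND and 0 in any difference. The proliferation covariate gave 108, 0, 0 and 50 genes, with 2 of the 9 in HFD against ND.

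Without 1 library, calls among the 9 ran from 4 to 6, 0 to 1, 0 to 1 and 2 to 5. All genes called ran from 89 (without ND replicate 5) to 301 (without HFD replicate 1), 0 to 16, 0 to 44 and 62 to 220. In HFD against ND they were 109, 130 and 132 without ND replicates 3, 4 and 6, and 127, 145 and 117 without HFD replicates 2, 4 and 6.

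The sign turned only in genes that were never called. Tubb6 in HFD against ND was 0.024 (limma-voom), 0.062 (replicates 3 to 6 alone), 0.058 (erythroid covariate) and 0.050 (proliferation covariate), and -0.16 to 0.059 without 1 library. In SW against ND it was -0.035 and -0.017 (FPKM plus 0.1 and 1), -0.018 (replicate block), -0.013 (factor), -0.52 (replicates 1 and 2 alone), -0.11 (myeloid) and -0.065 (proliferation), and -0.17 to 0.11 without 1 library. In SW against HFD it was -0.023 (limma-voom), -0.21 (replicates 1 and 2 alone), -0.0089 (erythroid) and -0.11 (proliferation), and -0.11 to 0.18 without 1 library. Tubb2a was 0.046 in SW against ND (replicates 3 to 6 alone), and -0.048 in SW against HFD (replicates 1 and 2 alone) and -0.0072 to 0.13 without 1 library. Tubb5 in SW against HFD was -0.018 (replicates 3 to 6 alone), -0.00747 (myeloid) and -4.99e-05 (proliferation). Depth limits Tubb6 most, with 51 to 121 counts.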

Other observations

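Of 29 immediate early and activation genes, Klf10, a transcription factor induced by transforming growth factor beta, was the only gene called by edgeR in HFD against ND. It averaged 13.1 ± 1.99 CPM in ND, 8.29 ± 1.70 in SW and 6.96 ± 2.40 in HFD (SD, n = 6), a log2 fold change of -0.91 ± 0.17 (SE; edgeR adjusted p = 0.00675) in HFD and -0.66 ± 0.17 in SW against ND (edgeR adjusted p = 0.173), where DESeq2 and limma-voom called it. Fos stood at 0.36 ± 0.40 and Fosb at 0.61 ± 0.53 in HFD against ND (edgeR adjusted p = 0.733 and 0.644). DESeq2 called 2 of the 29 higher in HFD, Tnfaip3 and Cd69, and limma-voom 1, Cd69, and both called Klf10 lower. EdgeR called none of 12 heat shock genes (4 with an unadjusted p under 0.05), with Hspa1a at 3.03 ± 1.21 and Hspa1b at 2.90 ± 1.23 (edgeR adjusted p = 0.248 and 0.283). HFD replicate 1 held 44.5 CPM of Hspa1a and 254 of Hspa1b, the next HFD library 6.44 and 16.8, and the medians were 1.64 and 4.29 in HFD against 0.990 and 6.01 in ND. DESeq2 called none of these 12 and limma-voom called 1, Dnajb1, lower.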
